A study of Mus musculus with 20 samples.

Results

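The receptors *Notch2*, *Notch3*, and *Notch4*, the ligand *Jag1*, the nuclear partners *Rbpj*, *Maml1*, and *Maml2*, the target *Hes1*, and the Deltex ubiquitin ligases *Dtx1* and *Dtx4* are genes of the Notch pathway other than *Notch1*. They were chosen by name, with earlier results of these data known, and are 10 of the 21938 protein-coding genes in the annotation. ChIP-Seq peaks of 3 histone marks were taken wherever they overlapped the body of a member gene or the 30 kb on either side. These windows held 1131 of the 591292 peaks in the 12 peak lists. The study asked how deletion of *Ep300*, which encodes the acetyltransferase p300, changes the chromatin of *Tet2*-deficient blood stem and progenitor cells.

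All mice carried floxed *Ep300* alleles (Ep300 fl/fl) on a C57BL/6 background. WT mice had Ep300 fl/fl without Cre, and Ep300Δ/Δ mice had Mx1-Cre;Ep300 fl/fl. Tet2-/- mice had Ep300 fl/fl on a Tet2-/- background, and Ep300Δ/ΔTet2-/- mice had Mx1-Cre;Ep300 fl/fl;Tet2-/-. The sample labels call the deleted genotypes p300 Knockout, Tet2 Knockout, and p300 Tet2 Knockout. Every group, controls included, received 3 doses of poly(I:C) at 10 μg/g from 6 to 8 weeks of age, which turns on the interferon-inducible Mx1 promoter and so the Cre. Mx1-Cre also acts in cells other than blood cells. The study's methods place experiments 2 weeks after poly(I:C) or at times given with each experiment, and no time is given with the ChIP-Seq. The number of mice pooled is not given in the sources used here. Lin- bone marrow cells are what remains after depletion of cells with markers of mature lineages, and each immunoprecipitation used 5 μg of chromatin. There was 1 library for each genotype and mark. No difference between genotypes could therefore be set against a spread between mice, no *P* values were computed, and intervals on shares are exact Clopper-Pearson 95% intervals that cover counting error only. In such bulk cells, a change in the cell types present and a change in the mark per cell cannot be told apart.

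The lists held 18327 to 29659 peaks for H3K27ac, 90738 to 107392 for H3K4me1, and 25012 to 27807 for H3K4me3. Sequencing depth is unknown from peak lists, and the authors' fold enrichment over the H3 library describes 1 list only, so each peak is given below by its place in its own list, which is the percentage of that list's peaks with a lower fold enrichment. Of 8 stem and progenitor markers, 8, 8, 7, and 7 had promoter H3K27ac in WT, Ep300Δ/Δ, Tet2-/-, and Ep300Δ/ΔTet2-/- cells. *Cd34* lacked it in Tet2-/- and *Gata2* in Ep300Δ/ΔTet2-/- cells. Promoter peaks do not check a deletion inside a gene, and the *Ep300* promoter had H3K27ac in every list. Among markers of other cells, promoter H3K27ac was present at 1, 0, 0, and 0 of 4 B lineage genes and at 2, 2, 1, and 0 of 4 mature myeloid genes in the same order. It was present at 1 of 4 T lineage genes in each list, at 1 to 3 of 3 erythroid genes, at 0 or 1 of 4 endothelial and of 4 stromal genes, and at 0 of 2 genes of other tissues (*Alb* and *Epcam*). The defining markers *Cd79a*, *Cd3e*, *Cd4*, *Ly6g*, and *Ltf* had neither H3K27ac nor H3K4me3 at their promoters in any list.

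Notch receptors are cell surface proteins that ligands such as Jagged1 on a neighboring cell activate. Proteolytic cleavage then frees the intracellular domain, which enters the nucleus, joins the DNA-binding protein RBPJ and a Mastermind-like coactivator (MAML1 or MAML2), and recruits p300 and other acetyltransferases to target genes such as *Hes1*, a transcriptional repressor. Without the receptor domain, RBPJ can hold corepressors at the same genes, and Deltex proteins are ubiquitin ligases that bind the intracellular part of the receptor. Of the marks, H3K27ac is typical of promoters and enhancers in use. H3K4me1 is found at enhancers in use and at poised ones, and H3K4me3 is mostly a promoter mark.

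The sequences that carry the results come from GRCm38 (mm10), written 5′ to 3′ on the plus strand, 151 bases around the summit of an H3K27ac peak. A stretch 18.9 kb upstream of *Notch2* (chr3:97994565-97994715) is shown because it had the strongest WT *Notch2* peak outside promoters and was present in all 4 lists. A stretch in intron 1 of *Notch2* (chr3:98025791-98025941) is shown because its peak was absent from Ep300Δ/Δ but present in Ep300Δ/ΔTet2-/- cells. Intron 1 of *Maml2* gives a region kept in all 4 lists (chr9:13466923-13467073) and a region lost on both backgrounds (chr9:13304031-13304181). Intron 1 of *Maml1* (chr11:50286832-50286982) and intron 2 of *Rbpj* (chr5:53594180-53594330) give further regions lost on both backgrounds. Capitals in the *Maml1* stretch and in the lost *Maml2* stretch mark the core of the RBPJ motif, TGGGAA on the plus strand of the first and on the minus strand of the other. Capitals in the kept *Maml2* stretch mark AGATAA, which is a GATA motif. The *Notch2* and *Rbpj* stretches hold neither in capitals.
Notch2, 18.9 kb upstream: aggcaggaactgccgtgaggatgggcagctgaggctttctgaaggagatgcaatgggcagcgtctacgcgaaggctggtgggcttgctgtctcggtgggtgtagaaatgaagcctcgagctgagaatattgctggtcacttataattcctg
Notch2, intron 1: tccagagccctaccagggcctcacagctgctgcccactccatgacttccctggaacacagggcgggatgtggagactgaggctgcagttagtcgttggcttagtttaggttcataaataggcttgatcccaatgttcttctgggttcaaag
Maml2, intron 1, kept: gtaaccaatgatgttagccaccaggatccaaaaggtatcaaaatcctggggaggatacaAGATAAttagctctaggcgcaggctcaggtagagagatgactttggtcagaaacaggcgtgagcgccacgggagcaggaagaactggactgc
Maml2, intron 1, lost: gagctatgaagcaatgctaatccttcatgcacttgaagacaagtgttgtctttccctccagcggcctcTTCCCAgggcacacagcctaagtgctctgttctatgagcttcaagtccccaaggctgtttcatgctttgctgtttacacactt
Maml1, intron 1, lost: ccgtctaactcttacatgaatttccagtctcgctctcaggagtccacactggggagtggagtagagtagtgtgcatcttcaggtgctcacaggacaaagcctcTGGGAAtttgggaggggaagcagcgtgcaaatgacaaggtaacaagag
Rbpj, intron 2, lost: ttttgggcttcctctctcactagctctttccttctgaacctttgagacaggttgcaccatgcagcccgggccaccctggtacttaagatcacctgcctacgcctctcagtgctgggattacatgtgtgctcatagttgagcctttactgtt

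RefSeq promoters of 300 bases (250 before and 50 after a start) were held for 8 of the 10 genes. The letters TGGGAA, searched on both strands, were found in entries of *Rbpj* and *Maml2*, in 3 of the 10 entries of the 8 genes, against 25.6% of 32851 mouse promoters. The longer RBPJ motif GTGGGAA, which contains TGGGAA, was in 0 of the 10 entries, against 6.38% of all promoters. The *Rbpj* promoter that lay under an H3K27ac peak in all 4 lists (chr5:53590096-53590395, plus strand of GRCm38.p6) held the core on each strand, in capitals. It overlaps a second *Rbpj* entry, and the TTCCCA match is counted in both.
Rbpj promoter: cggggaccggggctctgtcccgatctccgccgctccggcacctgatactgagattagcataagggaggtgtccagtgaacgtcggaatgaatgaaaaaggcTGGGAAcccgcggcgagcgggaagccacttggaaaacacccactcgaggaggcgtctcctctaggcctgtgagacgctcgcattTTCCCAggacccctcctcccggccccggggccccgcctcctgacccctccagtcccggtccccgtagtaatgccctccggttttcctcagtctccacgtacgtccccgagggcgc

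*Notch2* held the most H3K27ac peaks of the 10 genes in WT cells. Its window had 20 H3K27ac peaks in WT, 4 in Ep300Δ/Δ, 12 in Tet2-/-, and 3 in Ep300Δ/ΔTet2-/- cells. Both lists of *Ep300*-deleted cells were low, and the Tet2-/- list lay between them and WT. *Dtx4* followed with 10, 7, 10, and 4 peaks in the same order, of which many lay nearest to its neighbor *Mpeg1*. *Maml2* had 8, 7, 7, and 4, *Rbpj* had 6, 3, 7, and 4, and *Maml1* had 6, 5, 6, and 2. *Notch4* had 6, 7, 8, and 5, and *Notch3* had 2, 2, 1, and 2. *Jag1*, *Hes1*, and *Dtx1* had none in any list. For 5 of the 7 genes with any peak, each deletion list therefore held fewer peaks than the list with intact *Ep300* on its background. Among all 15260 genes with a peak in any list, 26.7% met this description, and the lists of *Ep300*-deleted cells were the shorter of each pair. The exceptions among the 7 genes were *Notch3* and *Notch4*. The share of all genes was not matched for peak number. In WT cells, the 5 genes each held more H3K27ac peaks than 82.1% to 99.7% of all protein-coding genes.

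**Figure D1:**
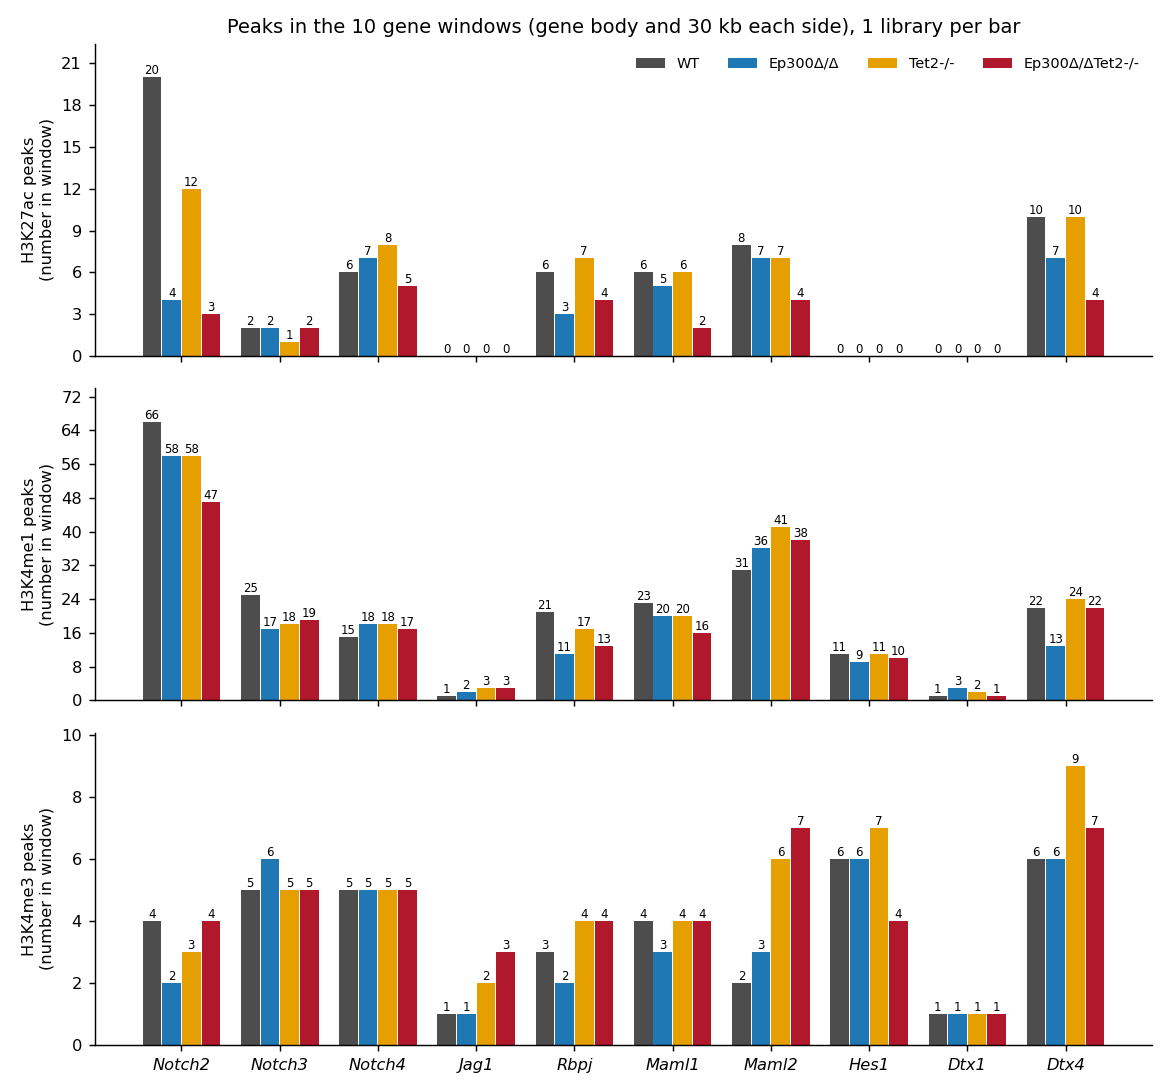
Number of H3K27ac, H3K4me1, and H3K4me3 peaks (y axes) in the window of each gene (x axis), with 1 bar for each genotype and 1 library behind each bar, so there are no error bars. *Notch2* fell from 20 to 4 H3K27ac peaks from WT to Ep300Δ/Δ, while its H3K4me1 peaks went from 66 to 58, and *Jag1*, *Hes1*, and *Dtx1* had no H3K27ac peak.

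Over all 10 windows, 29 of 57 H3K27ac regions of WT cells had no peak in Ep300Δ/Δ cells (50.9%, interval 37.3% to 64.4%), against 39.7% of all WT regions. From Tet2-/- to Ep300Δ/ΔTet2-/- cells, 31 of 51 were lost (60.8%, 46.1% to 74.2%), against 37.8% of all regions. The interval held the share of all regions in the first comparison and lay above it in the second. That share was not matched for place. Of the 51 Tet2-/- regions in the windows, 25 lay outside promoters, against 7444 of all 23675. Outside promoters, 20 of 29 regions were lost in Ep300Δ/Δ cells (69%, 49.2% to 84.7%, against 62.5% of all regions outside promoters) and 19 of 25 in Ep300Δ/ΔTet2-/- cells (76%, 54.9% to 90.6%, against 61.9%). At promoters, 9 of 28 regions were lost in Ep300Δ/Δ cells (32.1%, 15.9% to 52.4%, against 26.5%) and 12 of 26 in Ep300Δ/ΔTet2-/- cells (46.2%, 26.6% to 66.6%, against 26.8%). Within each place, the interval held the share of all regions in both comparisons, though only just at promoters in Ep300Δ/ΔTet2-/- cells. The second comparison therefore showed no excess beyond counting error once place was matched. Gains were few. Of the Ep300Δ/Δ regions, 2 of 30 had no WT peak, against 12.8% of all regions, and of the Ep300Δ/ΔTet2-/- regions, 2 of 22 had no Tet2-/- peak, against 15% of all.

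The shares lost rested in part on *Notch2* and on peak strength, and the shares of all regions beside them here were not matched for place. Without *Notch2*, the shares lost were 35.1%, below that of all regions, and 56.4%. With the lists of each pair cut to equal size, since the lists of *Ep300*-deleted cells were shorter, 39% were lost in Ep300Δ/Δ cells (26.7% of all regions) and 48.5% in Ep300Δ/ΔTet2-/- cells (23.5% of all). With only peaks of −log10 q of 5 or more, the shares were 47.6%, close to the 45.8% of all regions, and 61.5%, against 33.6%. When the regions of the first list were ranked by fold enrichment and put in 4 equal parts, losses in WT cells were 1 of 12 regions in the strongest part, 8 of 18 in the second, 5 of 9 in the third, and 15 of 18 in the weakest. The same parts of all regions lost 1.58%, 24.3%, 57.2%, and 75.9%. In Tet2-/- cells, losses were 0 of 6, 9 of 17, 13 of 15, and 9 of 13, against 1.96%, 21.9%, 55.1%, and 73% of all regions. The members' surplus over all regions lay mainly in the second part in WT cells and in the second and the third part in Tet2-/- cells.

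**Figure D2:**
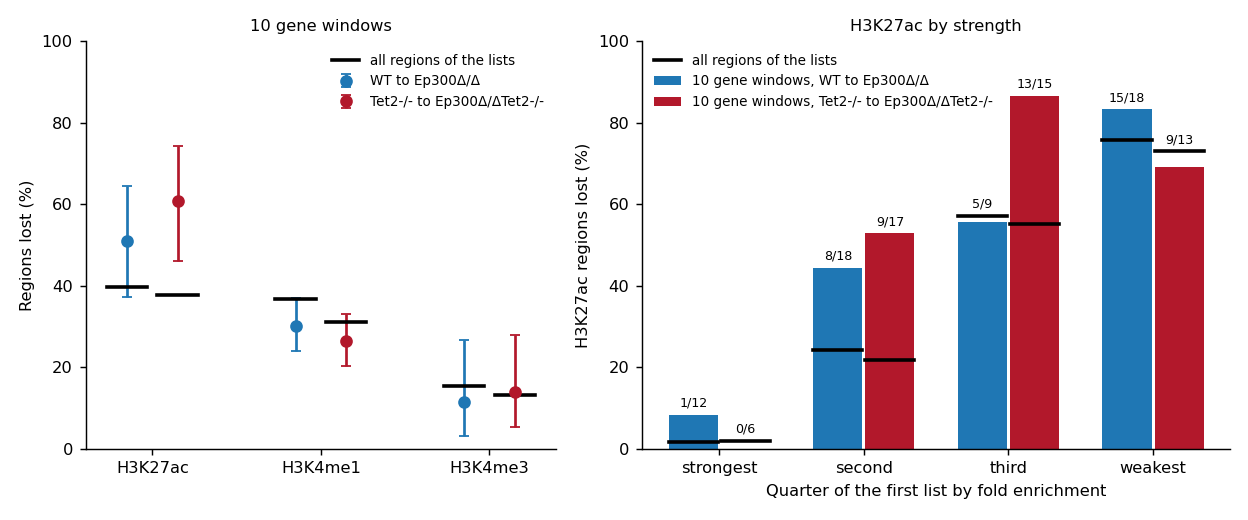
Left, percentage of regions in the 10 windows that were lost (points, with exact 95% intervals for counting error) for each mark and background, beside the percentage of all regions of the same lists (black lines). Right, percentage of H3K27ac regions lost in each of 4 equal parts of the first list by fold enrichment, with counts above the bars. In the strongest part 1 of 12 and 0 of 6 regions were lost, and in the weakest 15 of 18 and 9 of 13.

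Merging all 4 H3K27ac lists gave 65 regions in the windows, of which 16 (24.6%) had a peak in every list, against 35.5% of 35252 regions genome-wide. In 13 of the 65 (20%), peaks were present in both WT and Tet2-/- cells and absent from both lists of *Ep300*-deleted cells, against 6.54% of all regions. Of these 13, 6 lay in the window of *Notch2*, and at least 1 lay in each of the windows of *Notch4*, *Rbpj*, *Maml1*, *Maml2*, and *Dtx4*. The region in the *Dtx4* window was nearest to *Pfpl*, and the one in the *Notch4* window also lay within 3 kb of starts of *Gpsm3* and *Pbx2*. A peak that appeared only in *Ep300*-deleted cells was seen in 3 of the 65 regions (4.62%, against 7.9% of all).

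Active enhancers, defined as H3K27ac peaks outside promoters that overlapped H3K4me1 in that genotype, numbered 27 in WT, 7 in Ep300Δ/Δ, 23 in Tet2-/-, and 6 in Ep300Δ/ΔTet2-/- cells. *Notch2* held 15, 2, 9, and 3 of them. *Maml2* held 5, 3, 5, and 2, of which 3, 1, 4, and 1 were nearest to a start of *Maml2* and the rest to *Gm17571*. The *Dtx4* window held 4, 2, 4, and 1, which were all nearest to *Mpeg1* or *Pfpl*. *Rbpj* (1, 0, 3, and 0) and *Maml1* (2, 0, 2, and 0) had none left in either list of *Ep300*-deleted cells. The 5 other members had none in any list. Genome-wide, active enhancers numbered 9505, 5093, 6548, and 3720. The number in Ep300Δ/Δ cells was thus 25.9% of that in WT cells in the windows and 53.6% genome-wide, and the number in Ep300Δ/ΔTet2-/- cells was 26.1% of that in Tet2-/- cells in the windows and 56.8% genome-wide. Without *Notch2*, the windows held 12, 5, 14, and 3, which left 41.7% and 21.4%. With only peaks of −log10 q of 5 or more, the windows held 15, 6, 17, and 5, which left 40.0% (29.4% genome-wide) and 29.4% (53.8% genome-wide). The lower share left in the windows than genome-wide thus held under both settings on the *Tet2*-null background, and from WT to Ep300Δ/Δ cells the stricter threshold turned it around.

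For *Tet2* deletion, the share lost at these genes lay below that of all regions in cells with *Ep300* and above it in Ep300Δ/Δ cells, and the difference was not tested. From WT to Tet2-/- cells, 16 of 57 H3K27ac regions were lost (28.1%, 17% to 41.5%) and 7 of 48 gained (14.6%, 6.07% to 27.8%), against 35.6% and 20.3% of all regions. *Notch2* accounted for 9 of the 16 losses. From Ep300Δ/Δ to Ep300Δ/ΔTet2-/- cells, 16 of 32 H3K27ac regions were lost (50%, 31.9% to 68.1%), against 31.2% of all regions. At promoters, 12 of 24 were lost (50%, 29.1% to 70.9%), against 24.2% of all. Outside promoters, 4 of 8 were lost (50%, 15.7% to 84.3%), close to the 51.6% of all.

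The receptor *Notch2* (chromosome 3, 98013527 to 98150361) is the widest H3K4me1 domain among the members, with 66 H3K4me1 peaks over 46.0 kb in WT cells, 58 over 37.7 kb in Ep300Δ/Δ, 58 over 49.1 kb in Tet2-/-, and 47 over 37.5 kb in Ep300Δ/ΔTet2-/- cells. Its H3K27ac peaks covered 12.2, 2.25, 6.79, and 2.63 kb in the same order. The H3K27ac length in Ep300Δ/Δ cells was thus 18.4% of that in WT cells, against 61.3% for the whole lists, and in Ep300Δ/ΔTet2-/- cells 38.8% of that in Tet2-/- cells, against 79.4%. For H3K4me1 the lengths left were 82.0% and 76.4%, against 84.9% and 83.3%. The 21 merged H3K27ac regions ran from 22.4 kb upstream of the start to 70.2 kb downstream, in introns 1, 2, and 5, and 17 of them had an H3K4me1 peak in all 4 lists. Only 2 of the 21 were in every H3K27ac list, 9 were in WT only, 6 in WT and Tet2-/- only, and 1 in Tet2-/- only. The remaining regions were 2 at the promoter, absent from Ep300Δ/ΔTet2-/- cells only, and 1 in intron 1, absent from Ep300Δ/Δ cells only.

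The region 18.9 kb upstream of *Notch2* (chromosome 3, 97994372 to 97995449), whose sequence opens the set above, was in every list. It stood above 91.5% of the WT list, 66.8% of the Ep300Δ/Δ list, 78.1% of the Tet2-/- list, and 8.93% of the Ep300Δ/ΔTet2-/- list. The other constant region, 50.01 kb downstream in intron 2 (98062883 to 98064464), stood at 67.0%, 35.7%, 64.0%, and 36.5%. Counted from the top of lists that differ in length, 2517, 7536, 5372, and 16611 peaks had a higher fold enrichment than the upstream region, and 9761, 14591, 8811, and 11576 had a higher one than the intron 2 region. By either count both regions ranked lower in the *Ep300*-deleted list of each background. The intron 1 region at 12.3 kb (98025022 to 98026328) stood at 60.3% in WT, 19.6% in Tet2-/-, and 40.4% in Ep300Δ/ΔTet2-/- cells and was absent from Ep300Δ/Δ cells, so that it was the strongest *Notch2* peak of the double mutant. The strongest WT H3K27ac peak in the body of the gene, in intron 1 at 18.2 kb (98030565 to 98032164), stood at 81.8% in WT and 47.3% in Tet2-/- cells and was absent from both lists of *Ep300*-deleted cells. This region was chosen after its values were seen, and it lies within 3 kb of a start of the noncoding gene *Gm42819*.

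The *Notch2* promoter had 2 H3K27ac peaks in WT, Ep300Δ/Δ, and Tet2-/- cells, the stronger at 78.7%, 79.7%, and 72.5% of the lists, and none in Ep300Δ/ΔTet2-/- cells. H3K4me3 was present there in all 4 lists, at 62.5%, 95.5%, 92.9%, and 62.5%. The promoter thus lost its acetylation call only where both genes were deleted, whereas its intronic regions were fewer with *Ep300* deletion alone. At B lineage markers, promoter H3K4me3 was present at 3, 2, 1, and 0 and promoter H3K27ac at 1, 0, 0, and 0 of 4 genes in the same order. The part of B lineage cells in the *Notch2* result was not tested.

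**Figure D3:**
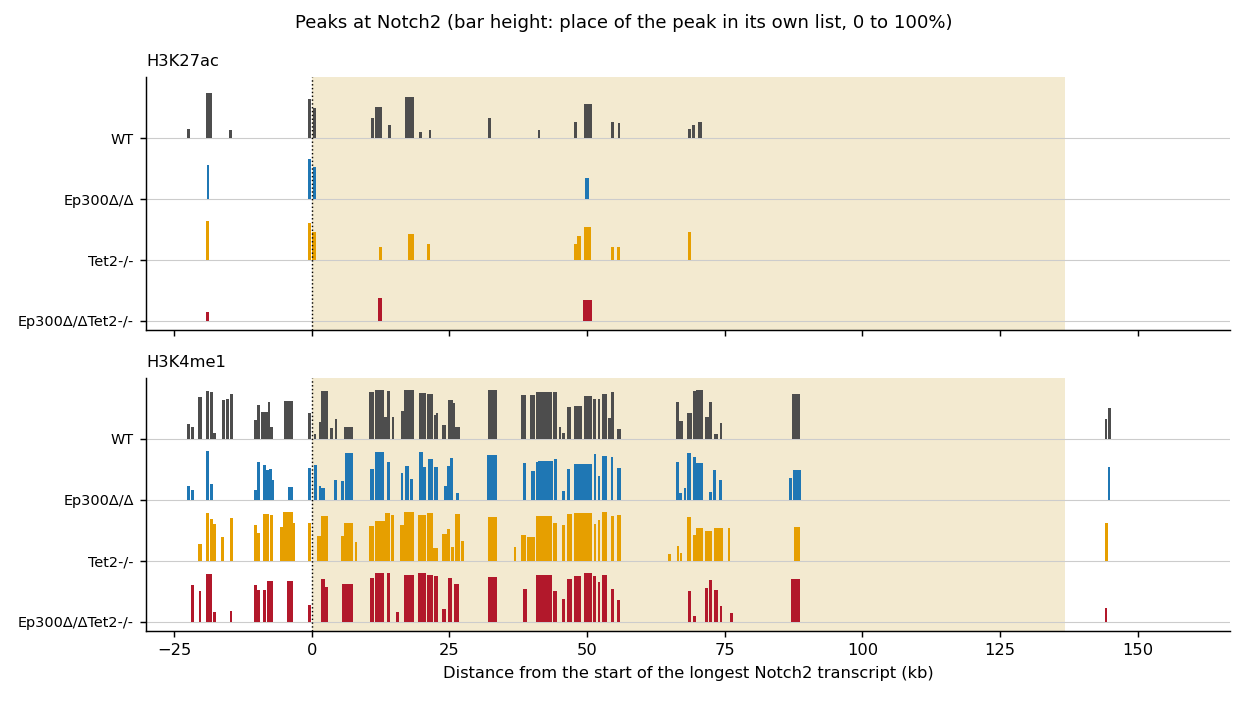
H3K27ac (top) and H3K4me1 (bottom) peaks at *Notch2* in the 4 genotypes by distance in kb from the start of its longest transcript. Each bar is a peak, drawn at least 0.5 kb wide, its height is its place in its own list from 0 to 100%, and the shading is the gene body. H3K27ac went from 20 peaks in WT to 4 and 3 in *Ep300*-deleted cells over a domain with 47 to 66 H3K4me1 peaks in each list.

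*Notch3* (chromosome 17, 32120820 to 32166852), a receptor best known from vascular smooth muscle and the T lineage, had 1 promoter H3K27ac peak in Ep300Δ/Δ cells at 43.1% of the list and none in the other lists. Its H3K4me3 promoter peak stood low in all 4 lists, at 9.03%, 32.4%, 19.1%, and 34.2%. H3K4me1 peaks numbered 25, 17, 18, and 19 and covered 15.4, 15.1, 16.8, and 15.9 kb, so that the lists differed more in the number of peaks than in the covered length.

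*Notch4* (chromosome 17, 34564268 to 34588503), known as an endothelial receptor, counted as acetylated in all 4 lists, but the peaks lay at starts of short transcripts at its 3′ end. They also lay within 3 kb of starts of *Gpsm3* or *Pbx2*, and the first was centered 22.9 kb from the start of the full-length transcript. Within 3 kb of that start there was 1 H3K4me3 peak in each list and no H3K27ac peak. Of the 4 endothelial markers, 0, 0, 1, and 1 had promoter H3K27ac in the same order of genotypes. The strongest H3K27ac regions of the window, at *Rnf5* and *Agpat1*, stood between 84.7% and 93.1% of every list.

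The ligand *Jag1* (chromosome 2, 137081456 to 137116644) showed H3K4me3 without H3K27ac. A merged H3K4me3 region over its start (137114356 to 137117834) was present in every list, with its strongest peak at 59.96%, 55.8%, 71.9%, and 56.9% of the lists in WT, Ep300Δ/Δ, Tet2-/-, and Ep300Δ/ΔTet2-/- cells. H3K4me1 peaks at the promoter numbered 1, 2, 3, and 3, and the strongest stood at 8.56%, 62.7%, 70.2%, and 80.9%. Both values were lowest in WT.

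*Hes1* (chromosome 16, 30064384 to 30067796) had no H3K27ac peak within 30 kb, with 6, 6, 7, and 4 H3K4me3 and 11, 9, 11, and 10 H3K4me1 peaks. The strongest H3K4me3 peak at its promoter stood at 46.2%, 44.2%, 42.5%, and 28.9% of the lists. The H3K4me3 region over the first base of the gene (30063629 to 30064792) was present in WT, Ep300Δ/Δ, and Tet2-/- cells and absent from Ep300Δ/ΔTet2-/- cells, and flanking H3K4me3 regions stayed in all 4. The longest protein-coding transcript starts outside that region, at 30065340. Within 3 kb of this start there were 4, 3, 4, and 2 H3K4me3 peaks, so H3K4me3 was kept there in every list. *Dtx1* (chromosome 5, 120680202 to 120711927), itself a known Notch target in lymphoid cells, had 1 weak H3K4me3 peak in each list, at 20.9%, 1.48%, 21.6%, and 11.6%, and 1 to 3 H3K4me1 peaks. *Jag1*, *Hes1*, and *Dtx1* therefore had marked promoters with no H3K27ac peak, and a signal below the peak threshold cannot be told from none.

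Across the 10 genes, promoter H3K4me3 was present in all 4 lists at 10 of 10, against 60.1% of all protein-coding genes. Promoter H3K27ac was present in all 4 lists at 4 (*Rbpj*, *Maml1*, *Maml2*, and *Notch4*), against 40% of all genes, and in none at 3 (*Jag1*, *Hes1*, and *Dtx1*), against 49.6%. The first count was at the share of all genes, and the second was below it. H3K4me3 in all 4 lists with no H3K27ac in any was found at 3 of 10, against 18.7% of all genes with H3K4me3 in all lists. Of the 6 members acetylated in WT, Ep300Δ/Δ, and Tet2-/- cells, *Notch2* and *Dtx4* were not acetylated in Ep300Δ/ΔTet2-/- cells, against 5.68% of 9290 such genes. When only the start of the longest protein-coding transcript was used, 2 genes in place of 4 were acetylated in all lists, *Maml1* and *Maml2*.

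**Figure D4:**
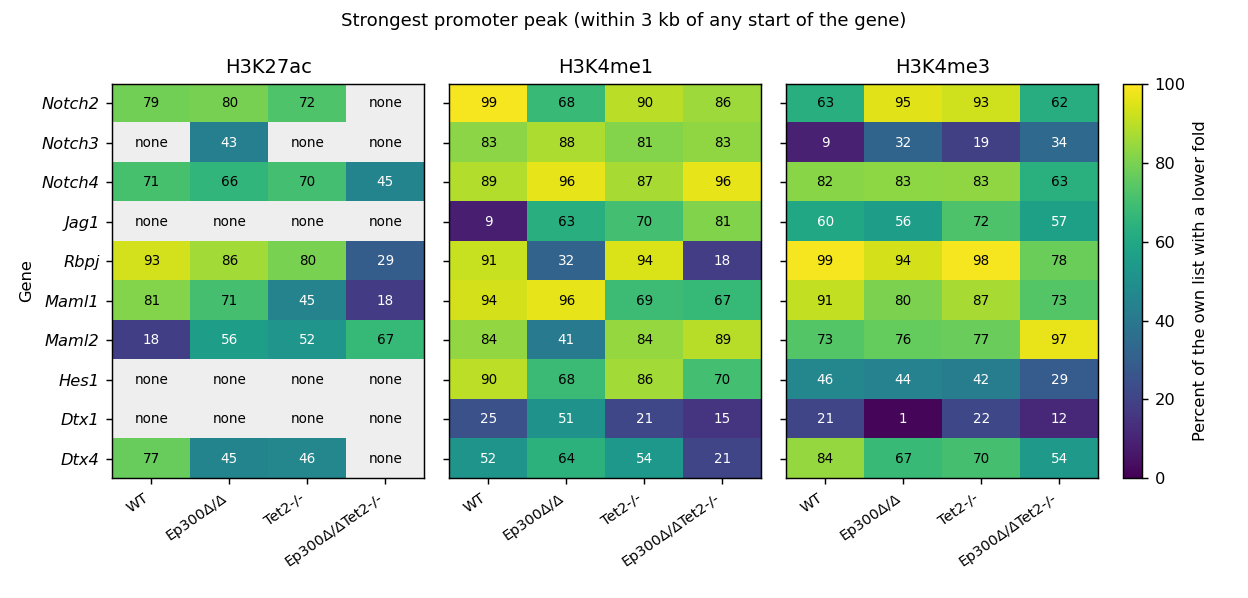
Place in its own list (color and number, 0 to 100%) of the strongest peak within 3 kb of any start of each gene (rows) in each genotype (columns) for 3 marks, with "none" where no peak was called. H3K27ac was called in no list at *Jag1*, *Hes1*, and *Dtx1*, and at *Rbpj* and *Maml1* it stood lowest in Ep300Δ/ΔTet2-/- cells, at 29.3% and 17.9%.

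*Rbpj* (chromosome 5, 53466152 to 53657362) encodes the DNA-binding protein of the pathway. Its marked promoter lay 123 kb downstream of the start of the longest transcript, at 53588357 to 53591751, and the far start carried no peak of any mark. The strongest promoter H3K27ac peak stood at 93.1% of the WT list, 86.2% of Ep300Δ/Δ, 79.8% of Tet2-/-, and 29.3% of Ep300Δ/ΔTet2-/-. H3K4me3 at the same promoter stood at 98.8%, 93.7%, 98.5%, and 77.6%. Since the lists differ in length, the place was also counted from the top, which missing weak peaks do not change. In the order WT, Ep300Δ/Δ, Tet2-/-, and Ep300Δ/ΔTet2-/-, 2035, 3135, 4962, and 12948 H3K27ac peaks of the list had a higher fold enrichment than the *Rbpj* promoter. The acetylation kept its call in every list, with the most stronger peaks in the double mutant. The intron 2 region at 128 kb (53594140 to 53594512) stood at 9.79% in WT and 68.3% in Tet2-/- cells and was absent from both lists of *Ep300*-deleted cells. H3K4me1 peaks numbered 21, 11, 17, and 13, and 12 of 21 WT regions were lost in Ep300Δ/Δ cells (57.1%, 34% to 78.2%), against the 36.7% of all H3K4me1 regions. From Tet2-/- to Ep300Δ/ΔTet2-/- cells, 6 of 17 were lost (35.3%, 14.2% to 61.7%), against 31.1%. Both intervals held the share of all regions.

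The coactivators *Maml1* and *Maml2* differed from each other. At *Maml1* (chromosome 11, 50255634 to 50292311), the strongest promoter H3K27ac peak stood at 81.5%, 70.6%, 44.6%, and 17.9% of the lists, in the order WT, Ep300Δ/Δ, Tet2-/-, and Ep300Δ/ΔTet2-/-. At *Maml2* (chromosome 9, 13297957 to 13709388), it stood at 18.5%, 56.2%, 52.2%, and 66.9%. Counted from the top, 5492, 6677, 13558, and 14982 peaks were stronger than the *Maml1* promoter, and 24175, 9943, 11719, and 6040 were stronger than the *Maml2* promoter. The order of the genotypes was opposite at its ends, with WT highest and Ep300Δ/ΔTet2-/- lowest at *Maml1* and the opposite at *Maml2*. The intron 1 region of *Maml1* at 5.404 kb (50286639 to 50287227), at 60.2% in WT and 32.8% in Tet2-/- cells, was absent from both *Ep300*-deleted lists while H3K4me1 stayed in all 4.

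*Maml2* held a strong intronic region that stayed in every list. It lay in intron 1, 169 kb from the start (13466276 to 13467407), and the nearest protein-coding start was that of *Gm17571*, 20245 bp away. The region stood at 86.4%, 78.5%, 93.9%, and 92.2% of the lists and carried H3K4me1 and H3K4me3 peaks in all 4. The intron 1 region at 6.15 kb (13303799 to 13304337) stood at 15.8% in WT and 74.9% in Tet2-/- cells and was lost from both lists of *Ep300*-deleted cells. The region at 239 kb (13536488 to 13537255) was absent only from Ep300Δ/Δ cells, at 53.1%, 51.6%, and 49.9% of the other lists. H3K4me1 peaks at *Maml2* numbered 31, 36, 41, and 38, and 14 of 34 Ep300Δ/Δ regions had no WT peak (41.2%, 24.6% to 59.3%, against 24.1% of all regions). From Tet2-/- to Ep300Δ/ΔTet2-/- cells, 10 of 37 were gained (27%, 13.8% to 44.1%, against 23.4%). From WT to Tet2-/- cells, 20 of 41 were gained (48.8%, 32.9% to 64.9%, against 26.8%), so the gain was not particular to *Ep300* deletion. H3K4me3 peaks numbered 2, 3, 6, and 7.

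**Figure D5:**
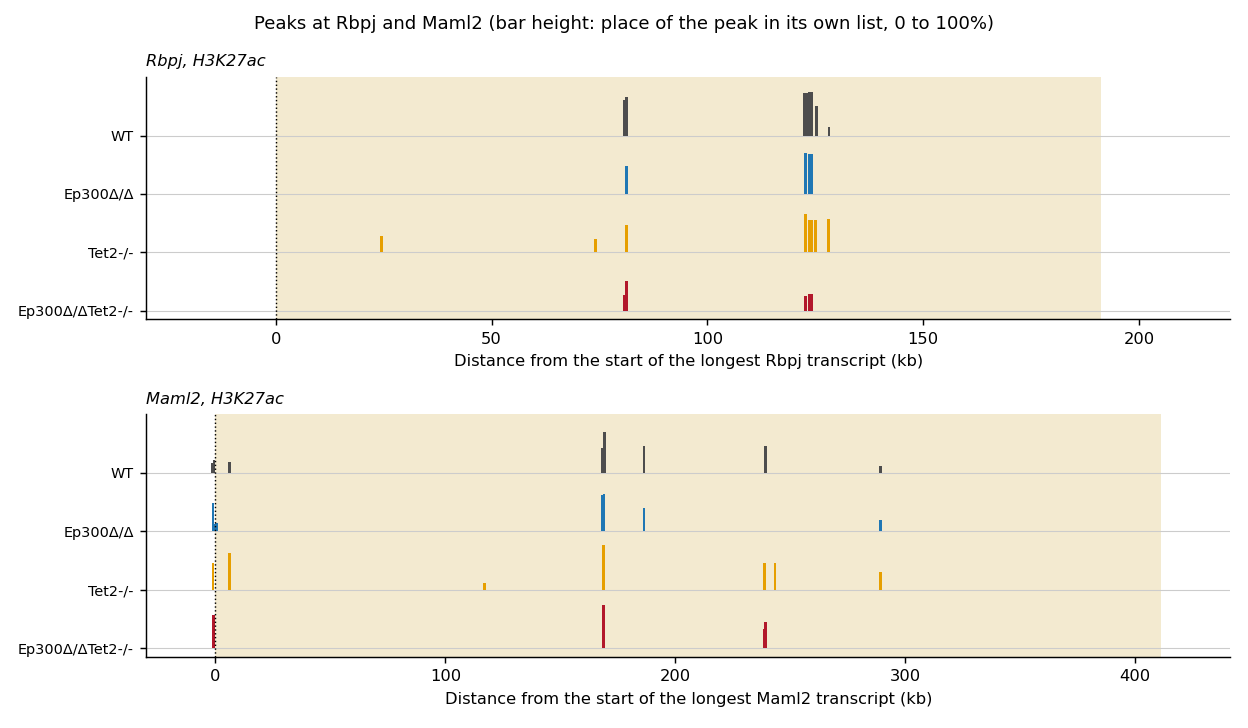
H3K27ac peaks at *Rbpj* (top) and *Maml2* (bottom) in the 4 genotypes by distance in kb from the start of the longest transcript. Each bar is a peak, widened where needed to be visible, its height is its place in its own list from 0 to 100%, and the shading is the gene body. The *Rbpj* promoter near 123 kb stood at 93.1% in WT and 29.3% in Ep300Δ/ΔTet2-/- cells, and the *Maml2* region at 169 kb stood between 78.5% and 93.9%.

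*Dtx4* (chromosome 19, 12466338 to 12501454) had 1 promoter H3K27ac peak in WT, Ep300Δ/Δ, and Tet2-/- cells, at 76.8%, 45.1%, and 46.5% of the lists, and none in Ep300Δ/ΔTet2-/- cells. Its promoter H3K4me3 stood at 84.0%, 67.3%, 70.4%, and 53.5%. The call pattern was that of the *Notch2* promoter. Elsewhere in the window, the acetylated regions lay mostly nearest to *Mpeg1*, a gene of macrophages and other phagocytes, where the main region (12461157 to 12463978) stood at 78.0%, 45.5%, 45.3%, and 4.44%. Promoter H3K27ac at mature myeloid markers was present at 2, 2, 1, and 0 of 4 genes in the same order, lowest in Ep300Δ/ΔTet2-/- cells as was the number of peaks in the window, while their promoter H3K4me3 was present at 2 of 4 genes in every list. The part of such cells in the *Dtx4* values was not tested.

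At these genes, the shares of H3K4me1 and H3K4me3 regions lost were below those of H3K27ac over all deposited peaks. With −log10 q of at least 5, H3K4me1 and H3K27ac were close from WT to Ep300Δ/Δ cells (45.3% and 47.6%) and apart on the *Tet2*-null background (37.2% and 61.5%). With a tolerance of 500 bp, the H3K4me1 shares were 16.5% and 14.4%, beside 43.9% and 51% for H3K27ac. From WT to Ep300Δ/Δ cells, 62 of 206 H3K4me1 regions were lost (30.1%, 23.9% to 36.9%, against 36.7% of all regions) and 27 of 171 gained (15.8%, against 24.1%). From Tet2-/- to Ep300Δ/ΔTet2-/- cells, 53 of 201 were lost (26.4%, 20.4% to 33%, against 31.1%) and 24 of 172 gained (14%, against 23.4%). For H3K4me3, 4 of 35 regions (11.4%, against 15.4%) and 6 of 43 (14%, against 13.3%) were lost. From WT to Tet2-/- cells, 10 of 41 Tet2-/- H3K4me3 regions had no WT peak (24.4%, against 13.6%). The 29 H3K27ac regions lost in Ep300Δ/Δ cells all carried an H3K4me1 peak in WT cells (82.1% of all lost regions did), and 26 carried an H3K4me1 peak in those cells (89.7%, 72.6% to 97.8%). Of the 31 lost on the *Tet2*-null background, 25 carried H3K4me1 in Tet2-/- cells (6713 of all 8950 lost regions did) and 23 in Ep300Δ/ΔTet2-/- cells (74.2%, 55.4% to 88.1%). Of the lost regions that carried H3K4me1 in the first list, 26 of 29 (89.7%) and 23 of 25 (92.0%) also carried it in the second, close to the 85.3% and 90.1% of all such regions.

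Of 42 other genes of the pathway, from ligands and secretases to corepressors, 27 had promoter H3K27ac in all 4 lists, 8 in none, and 7 in some, against 10.4% of all genes with a call that differed between the lists. In the order WT, Ep300Δ/Δ, Tet2-/-, and Ep300Δ/ΔTet2-/-, promoters were acetylated at 32, 31, 30, and 29 of the 42, and at 47.3%, 45.0%, 46.4%, and 43.1% of all genes. The acetyltransferase gene *Kat2a* had the pattern of *Notch2* and *Dtx4*, with a call lost only in Ep300Δ/ΔTet2-/- cells. *Notch1* and *Numbl*, a relative of the Notch inhibitor Numb, lacked it in Tet2-/- cells only. The feedback inhibitor *Nrarp* had it in WT and Tet2-/- cells only, the ligand *Dll4* in Ep300Δ/Δ only, the target *Hes5* in Tet2-/- only, and *Crebbp*, which encodes the paralog of p300, in WT only. Over all 12 promoter calls (3 marks in 4 lists), *Notch2* and *Dtx4* had the same pattern as each other, and each shared it with 451 genes of the annotation. *Notch3* shared its pattern with 69 genes including *Dll4*. *Jag1*, *Hes1*, and *Dtx1* had the same pattern as each other, shared with 1840 genes, including *Dll1*, *Hey1*, *Hey2*, and *Rfng*. *Rbpj*, *Maml1*, *Maml2*, and *Notch4* had all 12 calls, a pattern shared with 7138 genes.

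Within 100 bp of H3K27ac summits, the RBPJ core TGGGAA on either strand was found in 17 of 58 peaks of the windows in WT (29.3%, against 19.2% of that list), 9 of 35 in Ep300Δ/Δ (25.7%, against 18.6%), 14 of 51 in Tet2-/- (27.5%, against 19.1%), and 4 of 24 in Ep300Δ/ΔTet2-/- cells (16.7%, against 19%). The longer GTGGGAA, counted within these, was found in 4, 4, 4, and 1 peaks (6.9%, 11.4%, 7.84%, and 4.17%, against 5.25%, 5.3%, 5.62%, and 5.31% of the lists). At H3K4me1 summits the core was in 17.7% to 26.4% of the members' peaks, against 20.7% to 21.1% of the lists. GATA letters (AGATAA) were in 6, 2, 4, and 2 H3K27ac peaks of the windows (10.3%, 5.71%, 7.84%, and 8.33%, against 5.45%, 4.51%, 5%, and 5.14% of the lists). RUNX letters (AACCACA) were in 1, 0, 1, and 0, against 3.07% to 3.61% of the lists, and ETS letters (CCGGAAGT) in none, against 0.779% of the WT list. At H3K4me1 summits AGATAA went the other way, in 3.74% to 4.3% of the members' peaks against 7.36% to 7.81% of the lists. A match describes letters and not a bound site.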

How the data were processed

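ChIP-Seq for H3K27ac, H3K4me1, and H3K4me3 was analyzed in Lin- bone marrow cells of 4 genotypes, with 1 library per group. Per the labels and the study's methods, the authors used cutadapt 1.15 for trimming, BWA 0.7.13 for alignment to mm10, and Picard for duplicates, and called peaks with MACS2 2.1.1.20160309 against the H3 library of the same genotype, using pseudo-replicates. The deposited peak lists give positions, a fold enrichment over H3 (a ratio), −log10 p-values and −log10 q-values, and a display score that was not used. As far as described, values were not scaled by the Drosophila spike-in. The stated q threshold was 0.05, and between 0.78% and 7.17% of the peaks in each H3K27ac list lay above it, 7.17% being Ep300Δ/Δ. The sources differ on whether reads were single or paired. Depth is unknown, so precision beyond counting error cannot be given. Of 20 samples, 8 (H3 and H3K27me3) were not analysed here.

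Gene bodies came from the GENCODE annotation of GRCm38.p6 and were extended by 30 kb. Promoters were 3000 bp on each side of any transcript start. Before a comparison the overlapping peaks of a pair of lists were merged, and a region was lost or gained if no peak of the other list overlapped it by at least 1 bp. Fold enrichment was used only to place a peak within its own list. Motif letters were counted within 100 bp of a summit. Analysis used Python 3.11.15 with pandas 2.3.3, numpy 2.4.6, pysam 0.24.0, scipy 1.17.1, and matplotlib 3.10.9, and bedtools 2.31.1. Counts of lost and gained regions, tested on simulated data, gave the known answer in 10 of 10 pairs of lists, and the code gave the counts of bedtools in 12 of 12 real pairs.

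The 10 genes, the pathway list, and the marker lists were chosen with earlier results of these data known. All 10 genes were named. Pathway genes were named where their promoter H3K27ac call differed between lists or where they shared the calls of a member. Regions with coordinates were the strongest H3K27ac peak outside promoters of a window and lost or gained regions in the upper part of their list, and other regions were chosen after their values were seen. Alternatives changed the overlap, the q threshold, the list size, the window, the promoter width, and the set of genes.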

Additional observations from a re-analysis of the deposited data

Results flagged for a closer look

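At 5 genes the number of peaks moved in opposite directions with *Ep300* deletion on the 2 backgrounds. With 1 library per group these differences were not tested. In *Notch2*, the number of H3K4me3 peaks changed by -2 from WT to Ep300Δ/Δ and by 1 from Tet2-/- to Ep300Δ/ΔTet2-/- cells. In *Notch3*, H3K4me1 peaks changed by -8 and 1 in the same comparisons. In *Notch4*, H3K27ac peaks changed by 1 and -3, and H3K4me1 peaks by 3 and -1. In *Maml2*, H3K4me1 peaks changed by 5 and -3, and in *Dtx1* by 2 and -1.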

How the results depend on the processing

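Of 77 values recomputed for 11 results, 64 stayed within the counting interval of a share or within 1.5 times a count. From WT to Ep300Δ/Δ cells, the share of H3K27ac regions lost was 65.7% in gene bodies alone and 35.1% without *Notch2*. The share of H3K4me1 regions lost was 16.5% (WT to Ep300Δ/Δ) and 14.4% (Tet2-/- to Ep300Δ/ΔTet2-/-) where a peak within 500 bp counted as present, and 45.3% and 37.2% with −log10 q of at least 5. Active enhancers numbered 15 in WT cells with −log10 q of at least 5, and 11 with promoters of 1000 bp and 4 in gene bodies alone in Ep300Δ/Δ cells. Without *Notch2* they numbered 12 in WT, 14 in Tet2-/-, and 3 in Ep300Δ/ΔTet2-/- cells. With the longest transcript's start only, 2 genes had promoter H3K27ac in all lists. The causes were not tested. The settings without *Notch2*, with q of at most 0.05, and with the longest transcript were chosen after seeing the data. No paired analysis was possible because each group had 1 library. No replicate could be left out, and the spread between mice is unknown.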
